A study of Homo sapiens with 8 samples.

Results

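ATP-binding cassette (ABC) genes encode membrane transporters that use ATP to move lipids, conjugated drugs, peptides and metal or heme compounds across membranes, together with a smaller set of soluble ATPases that act on ribosomes. They are sorted by sequence into subfamilies A to G. In this family the A group moves lipids, the B and C groups hold drug and conjugate exporters as well as mitochondrial transporters, the D group serves peroxisomes and lysosomes, the E and F groups work in translation, and the G group moves sterols and drugs. In squamous epithelium ABCA12 is known for loading lipids into lamellar granules, and in tumour cells the exporters of the B, C and G groups are known for drug efflux.

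Members were taken as the table rows whose symbol is ABC, a letter from A to G and a number. There were 42 such rows of 16082 genes, and 26 of them had a count of at least 10 in 4 or more of the 8 libraries. These 26 are called expressed here, and 16 fell below the count limit. The cells were KYSE150, a cell line from a human esophageal squamous cell carcinoma, without further treatment. Poly(A) RNA was sequenced from 4 samples whose genotype is given as ShHNRNPC, in which a short hairpin RNA targets HNRNPC, an hnRNP that packages newly made nuclear RNA, and from 4 samples whose genotype is given as Control. The labels do not state the number of hairpins, the kind of control construct or whether samples came from separate cultures. P-values therefore set the group difference only against the spread of these samples, and that spread may be technical.

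Library totals were 28323403 to 34913500 counts. Levels are given in CPM, the usual depth-scaled count, with library sizes adjusted by TMM factors, and fold changes are shHNRNPC over control from edgeR's quasi-likelihood test, with p-values adjusted by Benjamini-Hochberg over the 12001 genes tested and called below 0.05. HNRNPC was at 33.9 ± 1.81 CPM in the shHNRNPC libraries and 587 ± 12.5 CPM in the control libraries (SD, n = 4 each). Of 9 squamous epithelial markers 8 were above 1 CPM, with SOX2 the exception, and their sum was 2297 to 2349 CPM in the shHNRNPC libraries and 1404 to 1432 CPM in the control libraries. Of 5 fibroblast markers, COL1A1 alone passed 1 CPM, and the list summed to 8.38 to 9.50 CPM in the shHNRNPC libraries against 3.65 to 3.88 CPM in the control libraries. Of 3 endothelial markers, VWF alone passed 1 CPM (list sums 1.21 to 1.84 CPM against 2.03 to 2.45 CPM), and the immune marker LYZ and the hepatocyte and enterocyte markers ALB and VIL1 were below 1 CPM. The part of these marker differences in the results was not tested. In bulk RNA, fewer cells with a transcript and less of it per cell cannot be told apart.

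Members of the family moved in both directions while their summed level stayed near that of control cells. All 26 expressed members were tested, of which 10 were higher and 12 lower in shHNRNPC cells and 4 were not called. Over all genes tested 38.7% were called higher and 38.6% lower, so the members' shares of 38.5% and 46.2% lie near the background, as does their share called in either direction (84.6%, against 77.3% of all genes). A change of at least 1.5-fold was called for 6 members, or 23.1%, against 21.9% of all genes, and one of at least 2-fold for 3 members, or 11.5%, against 8.42%. For 22 members no shHNRNPC library overlapped the control libraries in CPM (84.6%), against 70.8% of all genes. The median log2 fold change was -0.21 over the members and -0.01 over all genes tested, and the median absolute value was 0.31 against 0.30.

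The plot of fold changes by subfamily shows where the larger changes lay. Of the 6 called changes of at least 1.5-fold, 4 were in subfamily A (ABCA1, ABCA13, ABCA3 and ABCA7), 1 in subfamily C (ABCC3) and 1 in subfamily D (ABCD3). Subfamily A had 4 members lower, 2 higher and 1 not called. Subfamily B had 2 lower, 2 higher and 1 not called, and subfamily C had 2 lower, 3 higher and 1 not called. In subfamily D 1 was lower, 1 higher and 1 not called, in subfamily F 1 was lower and 2 higher, and the single expressed members of subfamilies E and G were both lower.

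**Figure D1:**
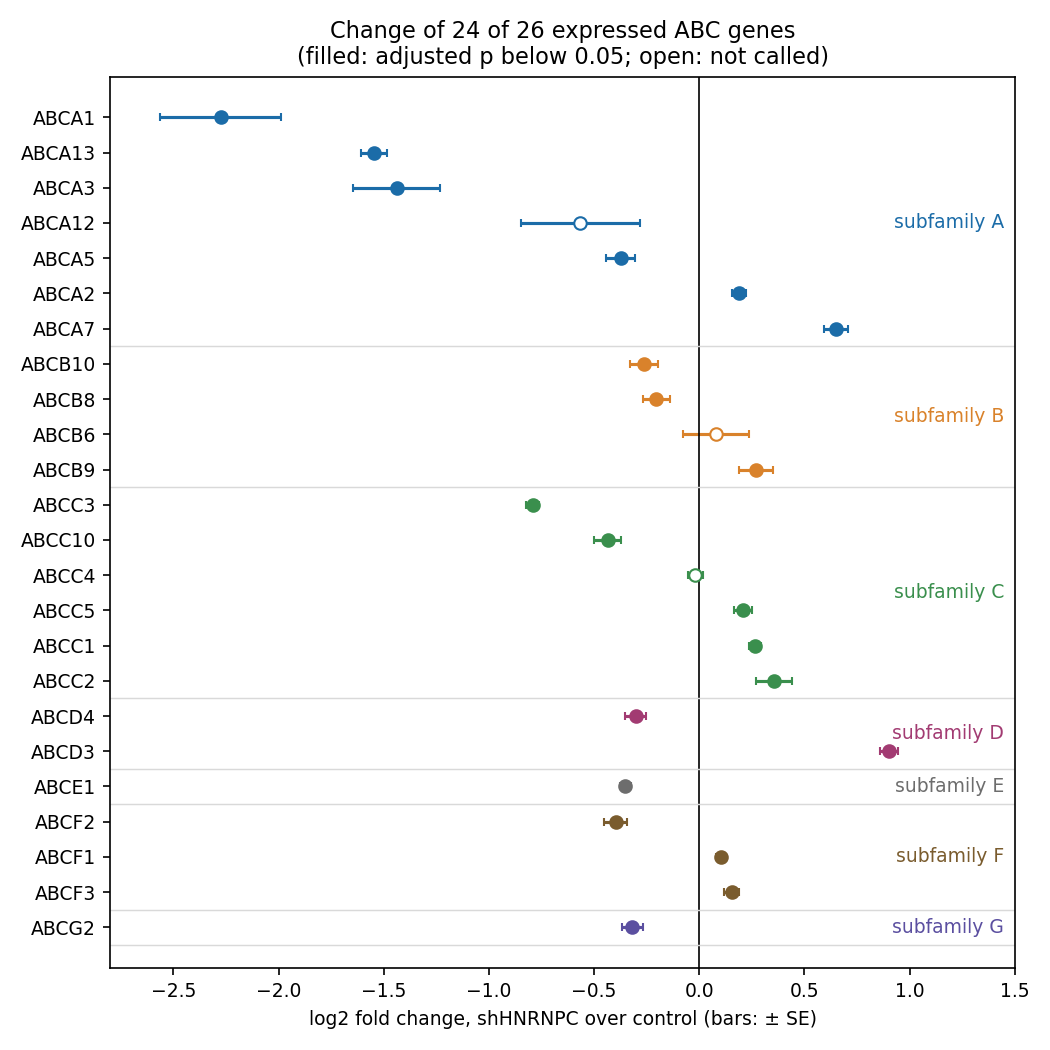
Log2 fold change of 24 of the 26 expressed ABC genes, shHNRNPC over control, on the x axis, with genes by subfamily down the page; bars are ± SE and open points did not pass an adjusted p of 0.05. Values run from -2.28 for ABCA1 to 0.90 for ABCD3, and subfamilies A to D and F each hold members on both sides of 0.

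ABCA1, which exports cholesterol and phospholipid to apolipoproteins and is a target of the oxysterol receptors LXR, showed the strongest fall of the family. It was at 0.284, 0.317, 0.664 and 0.268 CPM in shHNRNPC replicates 1 to 4, against 1.51, 2.07, 2.19 and 1.81 CPM in control replicates 1 to 4. Every shHNRNPC library was below every control library, and shHNRNPC replicate 3 stood above the other three of its group. This gave a log2 fold change of -2.28 (SE 0.29, edgeR adjusted p = 1.43e-10), and 1.02% of genes tested had a larger absolute change. ABCA1 lies on chromosome 9 from 104781002 to 104928237 (GRCh38, minus strand). Raw counts were 8 to 22 in the shHNRNPC libraries and 51 to 70 in the control libraries, so its fold change was less precise than that of most members.

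ABCA13 encodes the longest transcript of the expressed members, 17184 bases in its longest coding form, on chromosome 7 from 48171458 to 48647496. It was at 12.6, 11.5, 9.96 and 12.5 CPM in shHNRNPC libraries and at 32.2, 33.3, 34.6 and 35.6 CPM in control libraries. The lowest control library was more than double the highest shHNRNPC library, and shHNRNPC cells kept 34.3% of the control level (log2 fold change -1.55, SE 0.06, edgeR adjusted p = 1.27e-32). ABCA3, which loads surfactant phospholipid into the lamellar bodies of lung cells, was at 1.17, 1.27, 0.785 and 1.34 CPM in shHNRNPC libraries, against 3.69, 2.37, 3.37 and 2.92 CPM in control libraries. The groups did not overlap, with a log2 fold change of -1.44 (SE 0.21, edgeR adjusted p = 6.94e-09).

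ABCA7 went the other way. This transporter exports phospholipid and is known for a part in phagocytosis. It was at 28.8, 29.3, 25.7 and 26.5 CPM in shHNRNPC libraries and at 19.1, 17.0, 16.5 and 17.7 CPM in control libraries, with no overlap. It rose to 157% of the control level (log2 fold change 0.65, SE 0.06, edgeR adjusted p = 5.6e-16). The gene lies on chromosome 19 from 1040101 to 1065572.

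The remaining members of subfamily A moved less. ABCA2, a transporter of endosomes and lysosomes and the most abundant member of the subfamily in CPM, was at 112, 108, 102 and 106 CPM in shHNRNPC libraries, against 94.3, 93.3, 99.8 and 86.8 CPM in control libraries. Its groups were separate although the rise was small (log2 fold change 0.19, SE 0.03, edgeR adjusted p = 2.81e-06). ABCA5, also found in lysosomes, fell (13.5 ± 0.757 CPM against 17.5 ± 1.15 CPM, SD, n = 4 each; log2 fold change -0.37). ABCA12, the keratinocyte transporter that loads glucosylceramide into lamellar granules, was at 0.669 ± 0.169 CPM in shHNRNPC libraries and 0.996 ± 0.126 CPM in control libraries, and its log2 fold change of -0.57 did not pass (edgeR adjusted p = 0.0652, approximate 95% interval -1.12 to -0.01). Without shHNRNPC replicate 2 it passed, at -0.74 (edgeR adjusted p = 0.0351), with adjusted p from 0.0351 to 0.207 over the alternatives.

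**Figure D2:**
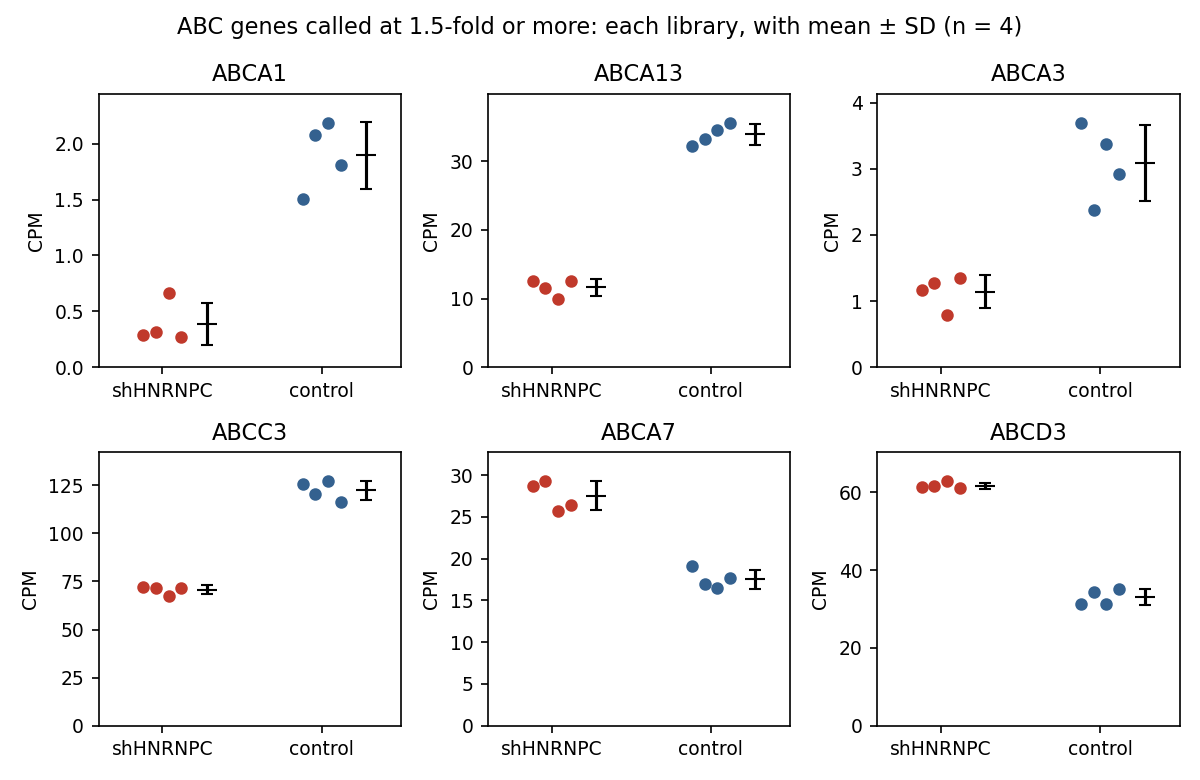
CPM in each library of the 6 ABC genes called with a change of at least 1.5-fold, shHNRNPC left and control right of each panel, with mean ± SD (n = 4) in black; each y axis starts at 0. In every panel the 4 shHNRNPC points lie apart from the 4 control points, below them for ABCA1, ABCA13, ABCA3 and ABCC3 and above them for ABCA7 and ABCD3.

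The drug and conjugate exporters of subfamily C moved in both directions, with the largest change in ABCC3. ABCC3, which exports glucuronides and bile acids across the basolateral membrane, was at 72.3, 71.4, 67.3 and 71.8 CPM in shHNRNPC libraries, against 126, 120.4, 127 and 116 CPM in control libraries. The groups were far apart, with a log2 fold change of -0.79 (SE 0.03, edgeR adjusted p = 3.91e-33). ABCC3 lies on chromosome 17 from 50634777 to 50692252. ABCC1, which exports glutathione conjugates and leukotriene C4, was at 116, 112, 118 and 114 CPM in shHNRNPC libraries and at 93.9, 92.3, 95.4 and 100.8 CPM in control libraries. All shHNRNPC libraries were above all control libraries for ABCC1 (log2 fold change 0.27, SE 0.03, edgeR adjusted p = 1.27e-12).

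Per kb of the longest coding transcript, ABCC1 was at 17.4 ± 0.367 CPM per kb and ABCC3 at 12.4 ± 0.402 in shHNRNPC cells, whereas in control cells ABCC1 was at 14.5 ± 0.559 and ABCC3 at 21.4 ± 0.867 (SD, n = 4 each). The order of these exporters thus differed between the groups with that length. With the median length of all annotated transcripts ABCC3 stayed above ABCC1 in both, at 89.96 against 83.9 CPM per kb in shHNRNPC cells and 156 against 69.8 in control cells.

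The apical conjugate exporter ABCC2 rose (11.2 ± 0.899 CPM against 8.74 ± 0.451 CPM; log2 fold change 0.35), as did ABCC5, an exporter of cyclic nucleotides (47.0 ± 1.71 CPM against 40.7 ± 2.15 CPM; 0.21). ABCC10, a lipophilic drug exporter, fell (14.9 ± 0.948 CPM against 20.2 ± 0.478 CPM; -0.44). ABCC4, which exports cyclic nucleotides and prostaglandins, was at 61.0 ± 1.47 CPM in shHNRNPC libraries and 61.8 ± 1.51 CPM in control libraries. Its log2 fold change of -0.02 was not called (edgeR adjusted p = 0.639), with an approximate 95% interval of -0.09 to 0.05.

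Subfamily D held the largest rise among the 26 expressed members. ABCD3, a peroxisomal membrane protein that imports branched-chain fatty acids and bile acid intermediates, was at 61.3, 61.6, 62.8 and 61.1 CPM in shHNRNPC libraries, against 31.2, 34.4, 31.4 and 35.1 CPM in control libraries. The shHNRNPC libraries agreed closely with each other and lay far above every control library (log2 fold change 0.90, SE 0.04, edgeR adjusted p = 2.12e-29), and 10.4% of genes tested had a larger absolute change. ABCD3 lies on chromosome 1 from 94418455 to 94518666. Per kb of the longest coding transcript, its rank among the expressed members was 4 in shHNRNPC cells and 10 in control cells. With the median length of all annotated transcripts ABCD3 was at 69.8 CPM per kb in shHNRNPC cells, below ABCA2 (113.5), ABCC3 (89.96) and ABCC1 (83.9). In control cells it was then at 37.4 CPM per kb, above ABCC4 (21.8), which lay above it with the longest length. These ranks thus depended on the length used. ABCD4, which carries cobalamin out of lysosomes, fell (29.6 ± 1.29 CPM against 36.4 ± 2.61 CPM; -0.30).

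RefSeq windows on GRCh38.p14, from 250 bases before to 50 after each gene's start, were matched for 22 of the 26 members. They are shown for ABCA1 and ABCA13, the 2 largest falls, and for ABCD3 and ABCA7, the 2 largest rises, 5′ to 3′ on the gene's strand. Capitals mark matches on either strand to the GC box GGGCGG, the E-box CACGTG, the CCAAT box, the TATA word TATAAA, the antioxidant-type word TGACNNNGC and the cyclic AMP response element TGACGTCA.
ABCA1 (chr9:104928106-104928405, minus strand): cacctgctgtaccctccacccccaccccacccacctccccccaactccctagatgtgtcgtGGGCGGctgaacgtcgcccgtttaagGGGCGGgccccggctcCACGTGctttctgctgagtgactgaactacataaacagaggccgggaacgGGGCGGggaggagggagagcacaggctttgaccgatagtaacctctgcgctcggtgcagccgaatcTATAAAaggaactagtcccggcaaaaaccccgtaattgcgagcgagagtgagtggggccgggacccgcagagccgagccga
ABCA13 (chr7:48171208-48171507, plus strand): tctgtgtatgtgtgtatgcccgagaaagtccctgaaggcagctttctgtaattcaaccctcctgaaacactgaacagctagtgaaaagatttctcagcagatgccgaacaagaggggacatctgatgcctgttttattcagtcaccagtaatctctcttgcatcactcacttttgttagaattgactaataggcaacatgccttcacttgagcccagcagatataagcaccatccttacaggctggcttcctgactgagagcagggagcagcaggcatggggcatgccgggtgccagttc
ABCD3 (chr1:94418139-94418438, plus strand): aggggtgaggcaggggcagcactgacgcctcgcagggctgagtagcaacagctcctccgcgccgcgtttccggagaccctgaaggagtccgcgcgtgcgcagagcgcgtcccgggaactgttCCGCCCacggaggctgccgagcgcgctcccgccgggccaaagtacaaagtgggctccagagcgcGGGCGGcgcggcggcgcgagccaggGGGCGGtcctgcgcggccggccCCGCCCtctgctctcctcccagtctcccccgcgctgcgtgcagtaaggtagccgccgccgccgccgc
ABCA7 (chr19:1039857-1040156, plus strand): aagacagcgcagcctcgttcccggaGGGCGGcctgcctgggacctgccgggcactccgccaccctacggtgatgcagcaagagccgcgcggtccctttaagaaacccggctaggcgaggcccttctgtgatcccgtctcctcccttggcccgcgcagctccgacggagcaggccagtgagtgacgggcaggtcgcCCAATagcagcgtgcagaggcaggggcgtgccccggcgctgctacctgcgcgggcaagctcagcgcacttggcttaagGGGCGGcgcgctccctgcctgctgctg
GC content was 62.7% for ABCA1 and 48.3% for ABCA13, against 75.0% for ABCD3 and 70% for ABCA7. The median was 65.5% over the 22 members and 65.3% over the windows of 9743 tested genes, of which 6.95% had no more GC than ABCA13. The ABCA13 window held none of the words searched. GGGCGG was in 15 of 22 members' windows (68.2%, against 70.5% of tested genes), and CACGTG in ABCA1, ABCB6 and ABCF1 (13.6%, against 10.1%). TATAAA was in ABCA1, ABCC2 and ABCC5 (13.6%, against 5.68%), CCAAT in 4 windows (18.2%, against 37.0%), TGACNNNGC in 7 (31.8%, against 15.1%) and the cyclic AMP response element in ABCE1 alone (4.55%, against 3.34%). These matches describe letters and not binding.

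The mitochondrial and lysosomal transporters of subfamily B moved by small amounts in both directions. ABCB10, an inner-membrane transporter linked to heme synthesis in red cell precursors and with 3 annotated pseudogenes that can share its reads, fell (15.7 ± 1.48 CPM in shHNRNPC libraries and 18.8 ± 1.06 CPM in control libraries, SD, n = 4 each; log2 fold change -0.26, SE 0.07, edgeR adjusted p = 0.000396). ABCB8, another inner-membrane member, fell as well (17.0 ± 0.934 CPM against 19.6 ± 1.19 CPM; -0.20, SE 0.06, edgeR adjusted p = 0.00306). Both falls lost their call without shHNRNPC replicates 1 and 4 together, at -0.17 for ABCB10 (edgeR adjusted p at the threshold of 0.05, lowest over the alternatives 0.000134) and -0.15 for ABCB8 (edgeR adjusted p = 0.0783, range 0.00151 to 0.0783).

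ABCB9, a lysosomal peptide transporter, rose (13.1 ± 0.946 CPM against 10.9 ± 1.09 CPM; 0.27, edgeR adjusted p = 0.00217), although the groups overlapped in CPM and 24.5% of its exon bases overlap genes on the opposite strand. ABCB6, a porphyrin transporter, was at 3.21 ± 0.557 CPM in shHNRNPC libraries and 3.03 ± 0.353 CPM in control libraries and was not called (0.08, edgeR adjusted p = 0.657, approximate 95% interval -0.23 to 0.39). Its sign turned without shHNRNPC replicate 1 (-0.031), and 54.7% of its exon bases lie in an overlapping gene model on the same strand. The antigen peptide transporters TAP1 and TAP2 belong to the same subfamily by sequence but carry other symbols. TAP1 was at 59.2 ± 1.91 CPM in shHNRNPC libraries and 28.8 ± 1.86 CPM in control libraries (log2 fold change 1.04, edgeR adjusted p = 2.41e-31), and TAP2, with 32.3% of exon bases overlapping other genes, at 135 ± 3.78 CPM against 121 ± 2.75 CPM (0.16). CFTR, a chloride channel of the C group, had at most 1 count in any library and was not tested.

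ABCF1 and ABCE1, soluble ATPases of subfamilies F and E, were the most abundant members in CPM in both groups. ABCF1, which binds the initiation factor eIF2, was at 439.6, 426, 416 and 434 CPM in shHNRNPC libraries, against 415, 404, 386 and 393 CPM in control libraries. All shHNRNPC libraries lay above the highest control library, by a narrow margin, and the rise was small (log2 fold change 0.10, SE 0.02, edgeR adjusted p = 1.53e-05). ABCE1, which splits ribosomes after termination, was at 139, 141, 139 and 138 CPM in shHNRNPC libraries and at 174, 183, 174 and 178 CPM in control libraries. The fall was clear of the spread in both groups (-0.35, SE 0.02, edgeR adjusted p = 1.34e-20). ABCF3, related to the yeast regulator GCN20, rose (64.6 ± 2.92 CPM against 58.0 ± 2.13 CPM; 0.15). ABCF2 fell (19.6 ± 0.430 CPM against 25.9 ± 1.49 CPM; -0.40), with 45.8% of its exon bases in a same-strand gene model and 2 annotated pseudogenes of its name.

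ABCG2, the multidrug exporter also known as breast cancer resistance protein, was the single expressed member of its subfamily. It was at 24.1, 24.3, 23.7 and 25.8 CPM in shHNRNPC libraries, against 30.7, 29.7, 29.9 and 31.7 CPM in control libraries. The groups did not overlap, and it fell to 80.2% of the control level (log2 fold change -0.32, SE 0.05, edgeR adjusted p = 8.24e-08).

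The expressed members spanned a wide range of levels. Per kb of the longest coding transcript, ABCF1 led with 123 ± 2.96 CPM per kb in shHNRNPC cells and 115 ± 3.63 in control cells (SD, n = 4 each), followed by ABCE1 (35.5 ± 0.342 and 45.2 ± 1.07) and ABCF3 (24.6 ± 1.11 and 22.1 ± 0.813). In shHNRNPC cells ABCD3 (17.4 ± 0.221) and ABCC1 (17.4 ± 0.367) came next and did not differ beyond their spread. In control cells ABCC3 (21.4 ± 0.867) came next and lay within the spread of ABCF3. With the median length of all annotated transcripts ABCF1 and ABCE1 still led, but the places after them differed. ABCA2 then lay above ABCF3, at 113.5 against 89.5 CPM per kb in shHNRNPC cells and 99.4 against 80.4 in control cells. ABCC3 did so too, at 89.96 in shHNRNPC cells and 156 in control cells. With the longest length, ABCA1, ABCA3 and ABCA12 were the lowest, at 0.0365 ± 0.0180, 0.173 ± 0.0374 and 0.0736 ± 0.0186 CPM per kb in shHNRNPC cells and 0.180 ± 0.0288, 0.468 ± 0.0870 and 0.110 ± 0.0138 in control cells.

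**Figure D3:**
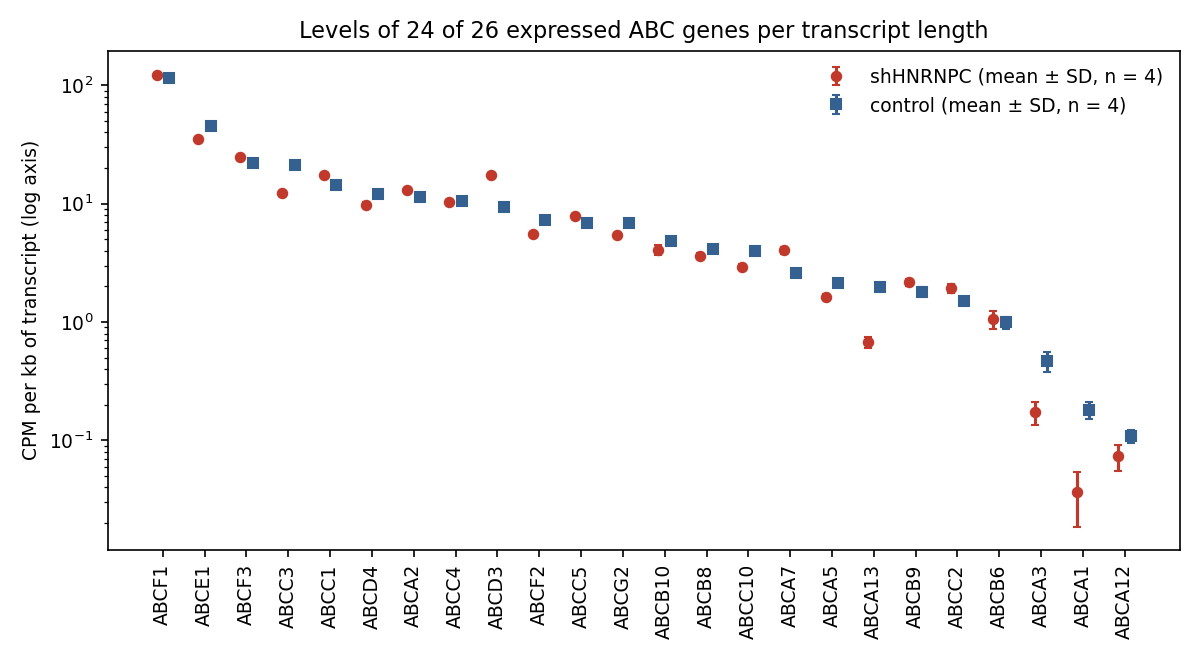
Mean level of 24 of the 26 expressed ABC genes in CPM per kb of its longest coding transcript (log axis) with SD (n = 4), shHNRNPC as circles and control as squares, ordered by the control level. ABCF1 is at 123 in shHNRNPC cells and 115 in control cells, and ABCA1 at 0.0365 and 0.180; the groups lie furthest apart for ABCA1, ABCA13 and ABCA3.

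The sum over the 26 members was nearly level between the groups. It was 1367, 1347, 1326 and 1356 CPM in the shHNRNPC libraries, against 1386, 1382, 1367 and 1373 CPM in the control libraries, or 98.0% of control on average. Subfamily F held 38.0 ± 0.437% of that sum in shHNRNPC cells and 35.1 ± 0.728% in control cells, and subfamily D 7.17 ± 0.176% against 5.51 ± 0.273%. Subfamily E held 10.3 ± 0.186% against 12.9 ± 0.289%, and subfamily C 23.7 ± 0.0188% against 25.4 ± 0.499%. Membrane transporters, subfamilies A to D and G, together took 51.7 ± 0.257% against 52.0 ± 0.788%. That gap was under the control SD but over the shHNRNPC SD. These sums are descriptions over members that were chosen as a group, and long transcripts weigh more in them.

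**Figure D4:**
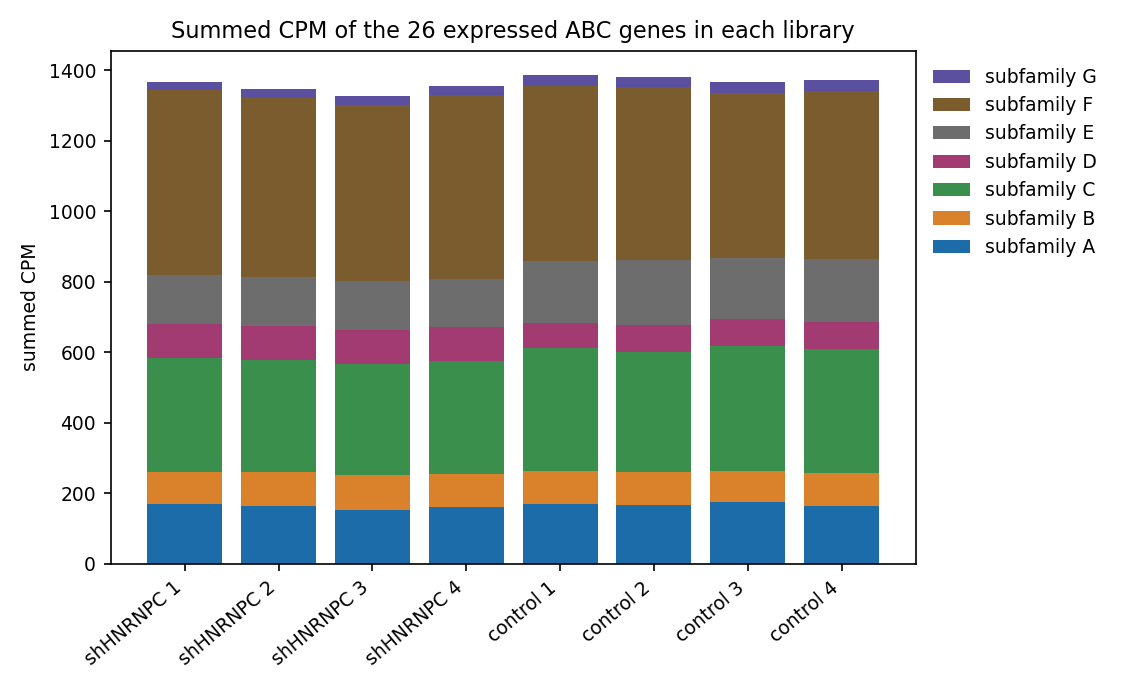
Summed CPM of the 26 expressed ABC genes in each library, shHNRNPC libraries left and control libraries right, stacked by subfamily from A at the bottom to G at the top, with the y axis from 0. The totals lie between 1326 and 1367 CPM in shHNRNPC libraries and between 1367 and 1386 CPM in control libraries, with more of subfamily D and less of subfamily E in the shHNRNPC libraries.

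Several exporters known from other tissues were below the count limit. ABCB1, the P-glycoprotein drug exporter, had 5 counts over all 8 libraries and at most 1 in any of them. ABCB4 and ABCB11, which export phospholipid and bile salts from liver cells, had at most 3 and 1 counts in a library, and the sterol exporter ABCG1 at most 1. Also below the limit were ABCA4, ABCA6, ABCA8, ABCA9, ABCA10, ABCB5, ABCC6, ABCC8, ABCC9, ABCC11, ABCD2 and ABCG4. ABCG4 came closest, with a count of at least 10 in 3 libraries (7 to 12 counts in shHNRNPC libraries and 4 to 17 in control libraries), followed by ABCC11 with 1 such library (3 to 6 counts against 5 to 13). ABCA10 had 1, 3, 0 and 2 counts in the shHNRNPC libraries and 6, 6, 7 and 7 in the control libraries. None of the 16 was tested, and no difference is stated for them. Just inside the limit were ABCA12, with 16 to 31 counts in shHNRNPC libraries and 28 to 39 in control libraries, and ABCA1.

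Annotated 3′ untranslated regions were searched for the 7-base word GAATGAT, which an earlier analysis picked from these same libraries because its carriers fell more often. It is therefore not independent evidence for the members. In 1 or more annotated coding transcripts, 4 expressed members carried it. The sites are shown for all 4, with the word in capitals and 8 bases of the transcript on each side.
ABCA13: aaaggcatGAATGATttgacagt
ABCE1: aaatttgtGAATGATcatttcaa
ABCD4: ctatcatgGAATGATctttttta
ABCB10: ttaagaatGAATGATttttgcat
All 4 carriers fell, from -0.26 for ABCB10 to -1.55 for ABCA13, whereas 8 of the 22 members without the word fell and 10 rose. Of all tested genes with a 3′ untranslated region of at least 50 bases, 53.7% of 1584 carriers and 36.4% of 10244 other genes fell. ABCA1, ABCA3 and ABCC3, which also fell by over 1.5-fold, did not carry it. The part of the word in the changes was not tested.

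Genes that work with these transporters were counted from lists chosen by function, to be read against the 38.7% of all genes tested that were called higher and the 38.6% called lower. Of 14 tested LXR and cholesterol efflux genes, 5 were higher (35.7%) and 8 lower (57.1%, median log2 fold change -0.21). The receptor NR1H3, which encodes LXR alpha and regulates ABCA1, fell to 7.56 ± 0.462 CPM in shHNRNPC libraries, against 14.5 ± 0.826 CPM in control libraries (SD, n = 4 each; -0.94, SE 0.08, edgeR adjusted p = 5.63e-16). MYLIP, a ubiquitin ligase induced by LXR, also fell (-0.76), and the lipoprotein receptor SCARB1 rose (0.59). The receptor NR1H2, which encodes LXR beta and lies outside the rule for naming, rose (116 CPM against 101 CPM, 0.20). Also outside that rule, LPCAT3 rose (0.37) and SREBF1 fell (-0.41). The part of LXR in these changes was not tested. Of 26 peroxisome biogenesis and beta-oxidation genes, 10 were higher (38.5%) and 12 lower (46.2%, median -0.05). The import ATPase PEX6 fell to 11.9 ± 0.731 CPM against 33.9 ± 1.62 CPM (-1.51), and the acyl-CoA synthetase ACSL1 rose (0.63), beside the rise of ABCD3.

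Of 19 ribosome recycling, rescue and GCN pathway genes, 4 were higher (21.1%) and 12 lower (63.2%, median -0.34). IMPACT, an inhibitor of the kinase GCN2, fell (-1.03), as did the initiation factor EIF2D (-0.58) and the release factor GSPT1 (-0.46), in the direction of ABCE1 and ABCF2, while ABCF1 and ABCF3 rose. Of 17 heme synthesis and mitochondrial iron carrier genes, 4 were higher (23.5%) and 7 lower (41.2%, median -0.04), with HCCS, which attaches heme to cytochrome c, higher (0.60), and PPOX (-0.52, 24.3% of exon bases overlapping other genes) and the iron carrier SLC25A37 (-0.39) lower. Of 19 sphingolipid genes 7 were higher (36.8%) and 7 lower (36.8%, median 0.00); KDSR of the ceramide pathway fell (-0.87) and the sphingomyelin synthase SGMS1 rose (0.56).

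Of 15 xenobiotic receptor and enzyme genes, 8 were higher (53.3%) and 4 lower (26.7%, median 0.10). The epoxide hydrolase EPHX1 rose (0.79), and the oxidase CYP1A1 (-0.68) and the sulfotransferase SULT1A1 (-0.72), which has close paralogs that can share its reads, fell. Of 10 uptake carriers 6 were higher (60.0%) and 3 lower (30.0%, median 0.15), including rises of the nucleoside carriers SLC29A1 (0.64) and SLC29A2 (0.51) and a fall of SLC22A18 (-0.81). KCNJ11, the pore that pairs with the sulfonylurea receptors ABCC8 and ABCC9, was the single channel subunit tested. It was low, at 34 to 51 counts in shHNRNPC libraries and 56 to 86 in control libraries. Its fall was called (-0.71, SE 0.22, edgeR adjusted p = 0.00265), although the groups overlapped in CPM. Both receptors were below the count limit. The median over all genes tested was -0.01.

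**Figure D5:**
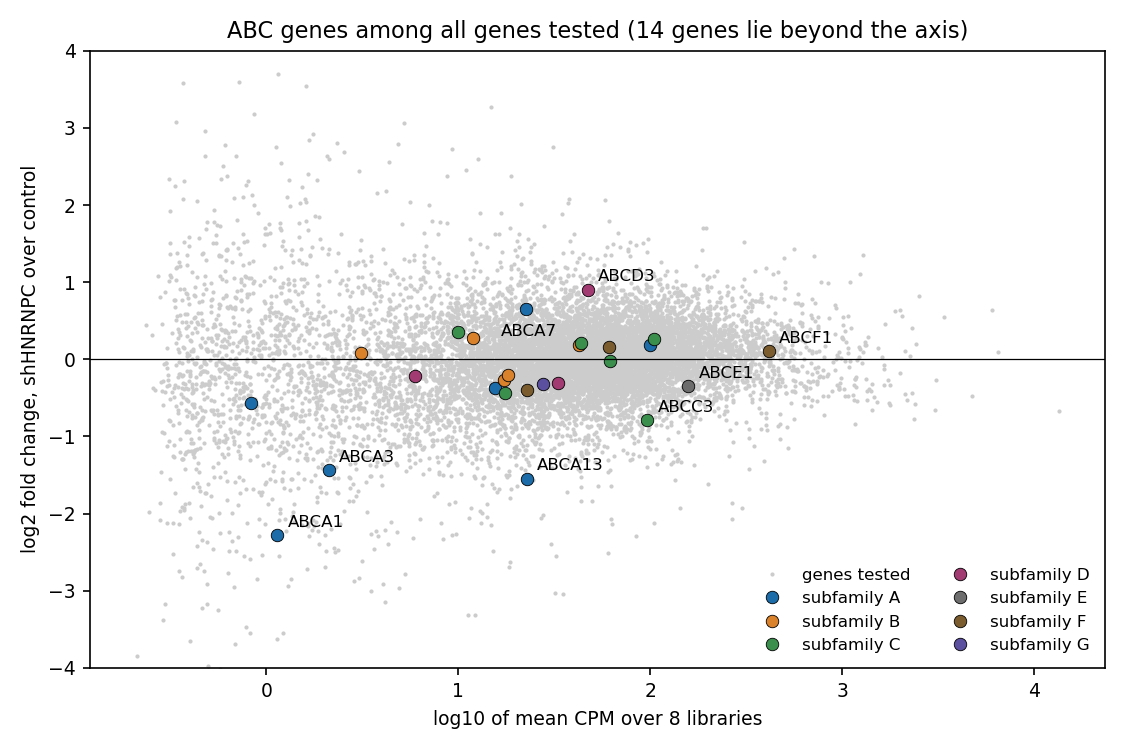
Log2 fold change, shHNRNPC over control, against log10 of the mean CPM over 8 libraries for all 12001 genes tested (grey) with the 26 expressed ABC genes coloured by subfamily; 14 genes lie beyond the y axis limits of 4. ABCA1, ABCA13 and ABCA3 lie lowest among the ABC genes, and ABCF1 and ABCE1 lie to the right, at 0.10 and -0.35.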

How the data were processed

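The authors deposited a table of raw read counts per gene for 8 libraries, 4 shHNRNPC and 4 control, grouped by genotype label. TRIzol extraction and poly(A) libraries from a VAHTS Universal kit are recorded, per the labels' protocols, and per the series design text low-quality reads were removed with fastp. The submitters' processing notes name hg38. Which aligner and counter were used, and with what annotation and strandedness, is not given in the sources used here, so reads of overlapping genes cannot be assigned with certainty, and exon overlap above 20% is stated.

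Genes were kept with filterByExpr (minimum count 10, minimum total 15), scaled with TMM and tested with edgeR 4.0.16 glmQLFit (robust) and glmQLFTest on the group term in R 4.3.3. SE was taken as |log2 fold change| over the root of the F statistic. Alternatives used DESeq2 1.42.0, other filters, a replicate block and left-out libraries. For single values whose groups do not overlap, the exact two-sided permutation test over 70 assignments gives p = 0.0286, the smallest it can give. Positions, transcript lengths and 3′ untranslated regions came from GENCODE release 29, which matched all 26 members and 15931 of 16082 genes, and promoters from RefSeq. Values in every library are given for members called with at least 1.5-fold change, for the 5 with the highest mean CPM and for ABCG2, the single expressed member of its subfamily. From each list up to 3 called genes with the largest change were named, leaving out genes under 1 CPM in both groups. The members and lists were chosen with earlier results of these data known. The values of 2 expressed members and 2 list genes are not reported here, though counts, medians and sums include them. The test was checked on simulated data, where it called 8 of 11768 unchanged genes and 37 of 50 genes changed 1.25-fold. Far fewer genes changed in that simulation than were called in these libraries, so it does not cover that case. Replicate libraries differed by more than sampling noise (chi-square per degree of freedom 2.66 to 3.70 within groups, at least 109 between groups).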

Additional observations from a re-analysis of the deposited data

Results flagged for a closer look

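Of 102 groups of 4 libraries looked at, for the ABC members, HNRNPC and the named list genes, 5 held a library whose gap to its neighbour passed Dixon's 95% critical value, where chance gives about 1 in 20. ABCA1 was at 0.664 CPM (22 counts) in shHNRNPC replicate 3, against 0.284, 0.317 and 0.268 CPM in replicates 1, 2 and 4. Without that library the log2 fold change of ABCA1 was -2.68. ABCB10 was at 20.4 CPM in control replicate 2, against 18.2, 18.2 and 18.5 CPM in the others. ABCF2 was at 19.0 CPM in shHNRNPC replicate 2, against 19.8, 19.9 and 19.8 CPM in the others. SLC22A18 was at 13.1 CPM in control replicate 3, against 11.03, 11.1 and 11.2 CPM in the others. GSPT1 was at 243 CPM in control replicate 4, against 252, 251 and 252 CPM in the others. The causes were not tested.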

How the results depend on the processing

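The counts of ABC members called, 10 higher and 12 lower, were the same with DESeq2 size factors, the DESeq2 test, no filter, a filter of 1 CPM in 4 libraries and the replicate block. With 1 library left out in turn, 10 were higher and 12 to 13 lower, and without shHNRNPC replicates 1 and 4 together 10 were higher and 10 lower. Without members that have over 20% of exon bases in another gene or a named pseudogene, an alternative chosen after seeing the data, 9 were higher and 10 lower. The members' median log2 fold change ranged from -0.23 to -0.16 over these settings. Of the members' single results, 359 kept their sign and their side of the threshold. The 4 others were ABCA12, called without shHNRNPC replicate 2 (-0.74), ABCB10 (-0.17) and ABCB8 (-0.15), not called without shHNRNPC replicates 1 and 4, and ABCB6, not called, which ranged from -0.031 without shHNRNPC replicate 1 to 0.15 without shHNRNPC replicate 4; the cause was not tested. All 350 single results of the named list genes and HNRNPC were stable in the same sense. The replicate block left 4605 genes higher and 4614 lower, against 4640 and 4635 without it. Deviations of libraries with equal numbers correlated at -0.06 to 0.02, so little deviation was shared. Whether equal numbers mark samples made together is not stated, and these correlations cannot show it. The number of expressed members was 29, 26 and 25 with at least 5 or 20 counts in 4 libraries or 10 in all 8. Levels per kb moved for all 26 members with the median transcript length (Spearman rho of the order 0.921). Depth limits ABCA1, ABCA3 and ABCA12 most.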
